A study of Mus musculus with 6 samples.

Results

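The clustered histone genes of the mouse were taken as every gene row whose symbol begins with Hist1h, Hist2h, Hist3h or Hist4h. The rule found 75 rows, carrying 67 different symbols, among the 22088 rows of each deposited table. Of these rows, 58 belong to the Hist1 cluster on chromosome 13, 13 to Hist2 on chromosome 3, 3 to Hist3 on chromosome 11 and 1 (Hist4h4) to chromosome 6. By protein class, 6 rows encode the linker histone H1, 22 encode H2A, 21 encode H2B, 13 encode H3 and 13 encode H4, pseudogene entries included.

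The study compared histone methylation by chromatin immunoprecipitation and sequencing (ChIP-seq) in 2 kidney cell lines, mK3 and mK4. Both are immortalized lines from E11.5 metanephros of the mouse strain CD1, and neither has a stated treatment. Each line gave a library with an antibody labelled H3K4 (Abcam ab8898), a library with an antibody labelled H3K27 (Active Motif 39535), and an input library of chromatin without antibody. Each of the 6 groups therefore holds 1 library of 1 line, without replicates, and differences were not tested for significance. The labels do not give the degree of methylation for either antibody. The vendor sells ab8898 as an antibody against H3K9me3, which differs from the label; "H3K4" is used here as the label's name, and which target was recovered was not tested. No RNA was measured, so the identity of the lines could not be checked on marker transcripts.

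Replication-dependent histone genes supply the nucleosome proteins while DNA is copied in S phase. Most lack introns, and their messenger RNAs end in a stem-loop in place of a poly(A) tail. H2A, H2B, H3 and H4 form the nucleosome core, whereas H1 binds the linker DNA where it enters and leaves. The genes lie in clusters, are transcribed in specialised nuclear bodies, and include nearly identical copies. Methylation of H3K4 is found at active promoters in general, and trimethylation of H3K27 is laid down by Polycomb complexes on silent developmental genes.

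The libraries held between 311409 and 714011 reads over exons. The histone genes took 676 and 848 of the H3K4 reads in mK3 and mK4, 361 and 357 of the H3K27 reads, and 460 and 685 of the input reads. These sums were 0.114% and 0.119% of the H3K4 libraries, 0.0609% and 0.0742% of the H3K27 libraries, and 0.148% and 0.177% of the inputs. The 5 members with most reads held between 41.3% and 48.7% of each sum. Exon lengths ran from 313 to 2978 bases with a median of 469, and 52 rows in mK3 and 49 in mK4 had under 5 input reads. Results are therefore given mainly as sums over classes and clusters. Intervals are exact 95% intervals (Clopper-Pearson for a ratio of read shares, Poisson for a density), and they cover counting error only.

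Rows whose symbol was listed more than once had almost no reads in any library. Each of 8 symbols (Hist1h2ao, Hist1h2ap, Hist1h2bq, Hist1h2br, Hist1h4m, Hist2h2aa1, Hist2h2aa2 and Hist2h3c1) was listed in 2 rows. Of these 16 rows, 14 had no read in any of the 6 libraries, and the 16 held 9 reads in all. By contrast, none of the 59 rows with a symbol of its own was without reads; their totals over 6 libraries ran from 2 to 325 with a median of 22. The same contrast held over the whole table, where 77.4% of the 288 rows with a repeated symbol were unread, against 1.36% of the other 21800 rows. By class, the unread rows numbered 7 of 22 for H2A, 4 of 21 for H2B, 2 of 13 for H3, 1 of 13 for H4 and 0 of 6 for H1.

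The H2B genes Hist1h2bq and Hist1h2br show how alike the promoters of such symbols can be. Their 300-base RefSeq windows (build GRCm38.p6) had 0 differences. The 125 bases before each start are printed 5′ to 3′, from chr13:21810200-21810324 (minus strand) and chr13:21833618-21833742 (plus strand). Capitals mark matches, on either strand, to the motifs described in the next paragraph.
Hist1h2bq: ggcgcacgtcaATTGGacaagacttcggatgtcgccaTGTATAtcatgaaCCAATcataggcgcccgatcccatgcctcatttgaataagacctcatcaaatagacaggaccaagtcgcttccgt
Hist1h2br: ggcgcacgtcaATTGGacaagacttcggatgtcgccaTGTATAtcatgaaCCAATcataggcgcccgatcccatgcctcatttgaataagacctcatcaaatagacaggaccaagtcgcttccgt
Both genes had 0 reads in every library, in both of their rows. RefSeq gave a window for 61 of the 67 symbols, 62 windows in all. In the windows of the 8 repeated symbols, between 69.4% and 100% of all runs of 36 bases occurred again at another position among all promoter windows, with a median of 85.1%. In the other 54 windows the median was 0%, and 1 of them, that of Hist2h3c2-ps, passed 50%, at 80.8%. Hist2h3c2-ps nonetheless held 123 reads in 6 libraries. Among all 32851 promoter windows, 4.23% passed 50%. Reads were counted over exons, while only promoter windows were compared, so the likeness of the counted sequence was not measured. How reads with several matches were assigned is not given in the sources used here, and its part in the missing reads was not tested.

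**Figure D1:**
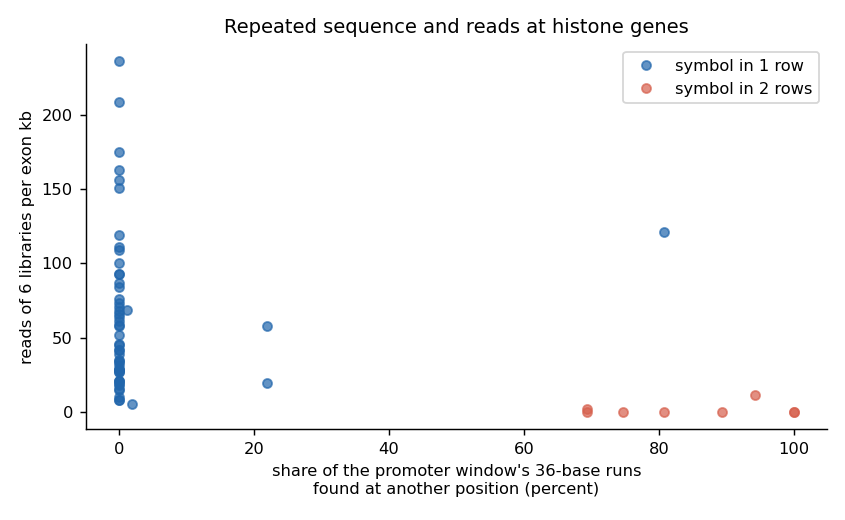
Reads of the 6 libraries per exon kilobase (vertical) against the percent of 36-base runs in a gene's promoter window that occur at another position (horizontal), 1 point for each of 62 windows. The sequence of the exons was not compared. Red points (symbols in 2 rows) lie at 69.4% or more and at or below 11.2 reads per kb; blue points (symbols in 1 row) have a median of 48.45 reads per kb.

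The linker histone genes carry a shared promoter layout, and they are printed because they held the highest density of input reads of the 5 classes. The stretches are the 125 bases before the start of Hist1h1c (chr13:23738682-23738806, plus strand), Hist1h1d (chr13:23554907-23555031, plus strand) and Hist1h1e (chr13:23622559-23622683, minus strand), in GRCm38.p6. Hist3h2a (chr11:58954560-58954684, plus strand) encodes an H2A and had the highest log2 ratio of H3K4 to input, with 5 added to each count, of the members with 10 or more reads. Hist4h4 had a higher ratio of read shares in mK3, 2.88 (0.628 to 26.7), from 11 H3K4 and 2 input reads.
Hist1h1c: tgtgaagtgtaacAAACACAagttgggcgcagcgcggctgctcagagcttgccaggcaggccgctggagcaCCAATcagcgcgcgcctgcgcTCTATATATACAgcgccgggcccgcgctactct
Hist1h1d: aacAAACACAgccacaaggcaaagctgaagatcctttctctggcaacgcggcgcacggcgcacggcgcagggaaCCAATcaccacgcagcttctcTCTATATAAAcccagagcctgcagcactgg
Hist1h1e: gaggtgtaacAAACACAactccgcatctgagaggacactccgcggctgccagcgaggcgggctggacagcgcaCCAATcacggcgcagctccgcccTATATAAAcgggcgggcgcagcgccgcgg
Hist3h2a: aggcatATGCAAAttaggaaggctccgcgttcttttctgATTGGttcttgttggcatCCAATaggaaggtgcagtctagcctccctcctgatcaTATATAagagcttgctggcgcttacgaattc
The capitals mark matches to 4 motifs, searched on both strands, and matches may overlap. The first motif is the CCAAT box, which was in 49 of 62 histone windows (79.0%) against 21.9% of all windows, including 6 of 6 for H1, 18 of 18 for H2A and 16 of 17 for H2B but 2 of 11 for H4. A box spelled TATANA was in 53.2% of histone windows against 11.4% of all. The H1 box, spelled AAACACA, was in 5 of 6 H1 windows and in 2.84% of all windows. The octamer core, spelled TTTGCAT, was in 6 of 17 H2B windows and in 1.94% of all. In 10 cases an H2A and an H2B gene lay head to head with overlapping windows, for example Hist1h2ae and Hist1h2bg, so these windows are not separate sequences. A match describes the letters and is no evidence of binding.

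Input chromatin, which was not enriched for any mark, was dense over histone genes. Density is given as RPKM, the reads over each kilobase of exon set relative to the library total, which is 16.1 for all rows together in every library. The histone genes stood between 24.6 and 29.6 (95% interval) in mK3 input and at 32.4 (30.0 to 34.9) in mK4 input, 1.68 and 2.02 times all rows. Without the rows of repeated symbols, input density was 36.3 in mK3 and 43.4 in mK4. The 4059 other rows of at most 1 kb exon length lay at 13.3 in mK3 and 13.1 in mK4, below all rows, so the dense input is not shared by short genes in general.

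The linker histones led the classes in input density. H1 genes stood at 63.8 (54.7 to 74.0) in mK3 and 68.4 (59.9 to 77.8) in mK4. The H4 genes followed with 35.0 (25.9 to 46.3) and 47.2 (37.5 to 58.5). H3 genes gave 26.2 (19.9 to 33.8) and 24.3 (18.9 to 30.8), and H2B genes 17.1 (14.1 to 20.6) and 22.7 (19.5 to 26.2). H2A genes gave 16.0 (12.4 to 20.3) and 23.2 (19.3 to 27.8). With all rows counted, the intervals of H1 overlap those of no other class, while H2A and H2B cannot be ordered. Without the rows of repeated symbols, H4 stood at 53.5 (42.4 to 66.5) in mK4, which overlaps H1, and H2B at 29.1 and 38.5, above the 28.6 of H3 in mK4. In GC content the classes also differ: the median of the 125 upstream bases was 60.4% for H1, 53.6% for H4, 46.4% for H3, 45.2% for H2A and 40.8% for H2B, against 54.4% for all windows. The part of base composition in the input density was not tested.

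**Figure D2:**
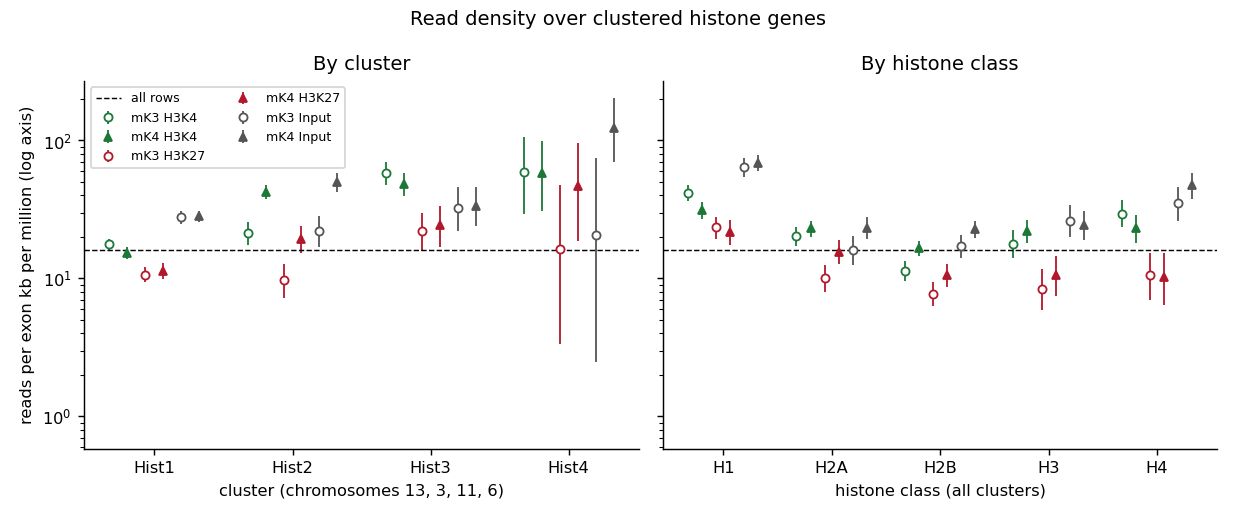
Density in RPKM (log axis) by cluster (left) and histone class (right), with open circles for mK3, triangles for mK4 and bars for exact Poisson intervals (counting error only). Grey input points of H1, 63.8 and 68.4, stand above the dashed line of all rows (16.1); red H3K27 points are the lowest of the 3 colours for every class.

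H3K27 reads were scarce over the histone genes relative to input. Their share of the H3K27 library was 0.412 times (0.358 to 0.474) their share of the input in mK3 and 0.419 times (0.367 to 0.477) in mK4. All 5 classes lay below 1 in both lines with intervals that exclude 1. H4 genes gave 0.3 (0.182 to 0.487) and 0.216 (0.128 to 0.349), and H1 genes gave 0.366 (0.288 to 0.464) and 0.317 (0.246 to 0.406). H3 genes gave 0.32 (0.206 to 0.493) and 0.437 (0.285 to 0.662), and H2B genes 0.453 (0.341 to 0.602) and 0.466 (0.363 to 0.596). H2A genes were nearest to input, at 0.627 (0.447 to 0.881) and 0.671 (0.51 to 0.881). Without the long genes Hist1h2ac and Hist3h2a, a choice made after their values were seen, H2A gave 0.375 (0.2 to 0.69) and 0.506 (0.319 to 0.791). Set against exon length in place of input, the members' H3K27 density was 0.694 times that of all rows in mK3 and 0.846 times in mK4. Without the nearly unread rows of repeated symbols these values were 0.924 and 1.14, so in mK4 the summed density lay above that of all rows. By cluster, the mK4 values without those rows were 0.954 for Hist1, 1.85 for Hist2, 1.51 for Hist3 and 2.9 for Hist4. The other genes of chromosome 3, which carries Hist2, also stood at 1.64 in mK4. The H3K27 deficit was thus relative to the dense input. Without the rows of repeated symbols it did not hold against exon length for the members summed.

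Among single genes, a difference was counted when it reached 2-fold after scaling to equal library totals and adding 5 to each count. By that rule, 13 of the 75 rows had less H3K27 than input in mK3 (17.3%), against 5.32% of all 22088 rows and 3.92% of the 4059 other rows of at most 1 kb. In mK4, 11 rows (14.7%) had less, against 6.07% of all rows and 4.56% of the short ones. In the other direction, 0 histone rows had more H3K27 than input in mK3, against 10.2% of all rows and 9.73% of the short ones. In mK4, 1 row, Hist1h1t, had more, against 9.01% and 7.37%. The median log2 ratio over the members was -0.13 in mK3 and -0.33 in mK4, against 0.00 for all rows; unread rows enter these medians at 0.

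Linker genes were 4 of the 13 low H3K27 rows in mK3 and 3 of the 11 in mK4. Hist1h1e, a main somatic H1, had 20 and 7 H3K27 reads in mK3 and mK4 against 46 and 60 input reads. Its H3K27 share over input was 0.228 (0.128 to 0.394) in mK3 and 0.0937 (0.0361 to 0.205) in mK4. Hist1h1d, the longest member, had 39 and 33 H3K27 reads against 55 and 80 input reads, for ratios of 0.372 and 0.331. Hist1h1b had 7 and 5 H3K27 reads against 12 and 30 input reads, and Hist1h1c 23 and 31 against 39 and 52. These 4 linker genes had fewer H3K27 than input reads in both lines, although the H3K27 libraries were the deeper ones. Hist1h1a, another somatic linker gene, did not: it had 20 and 11 H3K27 reads against 16 and 11 input reads. After scaling for library depth, its log2 ratio of H3K27 to input was still below 0 in both lines. So were those of all 6 H1 rows in mK3 and of 5 in mK4, where only Hist1h1t lay above. Outside H1, Hist1h4h encodes an H4 and had 5 H3K27 reads against 19 input reads in mK3, and 0 against 11 in mK4. Hist2h4 on chromosome 3 differed between the lines, with 7 H3K27 reads against 4 input reads in mK3 and 3 against 26 in mK4. At the other end, Hist1h2ac, a long H2A row, had 27 and 41 H3K27 reads against 15 and 38 input reads, for ratios of 0.945 (0.485 to 1.91) and 0.867 (0.544 to 1.39).

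**Figure D3:**
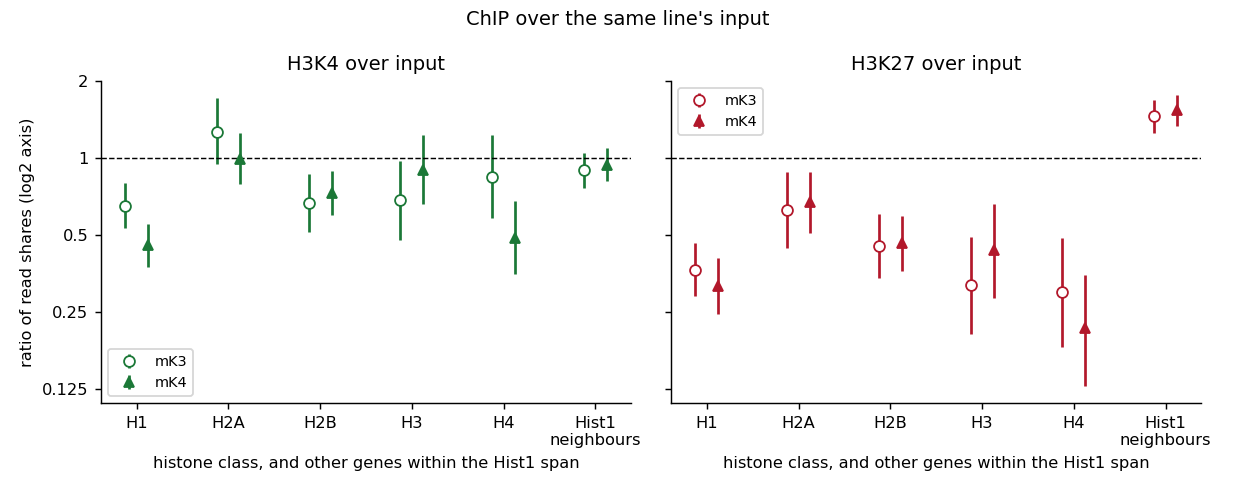
Ratio of read shares, ChIP over input of the same line (log2 axis), for H3K4 (left) and H3K27 (right), with circles for mK3, triangles for mK4 and bars for exact intervals (counting error only). All 5 histone classes lie below 1 for H3K27, from 0.216 to 0.671, and the other genes within the Hist1 span lie at 1.46 and 1.54.

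The other genes lying between the first and last Hist1 gene had H3K27 above input. These are 52 rows in RefSeq gene order, of which 36 are Vmn1r vomeronasal receptor genes and 16 are others, among them Hfe, Prss16 and the transporter genes Slc17a1 to Slc17a4. Their H3K27 share over input was 1.46 (1.25 to 1.69) in mK3 and 1.54 (1.34 to 1.77) in mK4, against 0.383 (0.326 to 0.45) and 0.405 (0.345 to 0.475) for the Hist1 genes. The ratio of both ratios, histone genes to neighbours, was 0.263 (0.212 to 0.327) in mK3 and 0.263 (0.214 to 0.324) in mK4. Slc17a2, for example, had 56 and 59 H3K27 reads against 8 and 16 input reads. Per exon length the H3K27 density was 10.6 and 11.4 for Hist1 genes and 14.8 and 16.2 for the neighbours, while input density was 27.7 and 28.1 against 10.2 and 10.5. Without the rows of repeated symbols, Hist1 stood at 14.1 (12.5 to 15.9) and 15.3 (13.4 to 17.4) for H3K27, overlapping the neighbours, and at 37.3 and 37.6 for input. Against the 52 neighbours summed, the contrast therefore lay in the input density, not in H3K27 reads per exon length. The neighbours themselves differed in H3K27 density, with 8.47 (7.25 to 9.83) and 7.1 (5.87 to 8.51) for the Vmn1r rows. The 16 other rows stood at 20.0 (18.3 to 21.8) and 23.7 (21.6 to 25.9). Without the rows of repeated symbols, Hist1 lay between these groups. In H3K27 over input, the Vmn1r rows gave 1.37 and 1.49 and the 16 other rows 1.49 and 1.55. In that ratio, receptors and other neighbours were alike within their intervals.

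**Figure D4:**
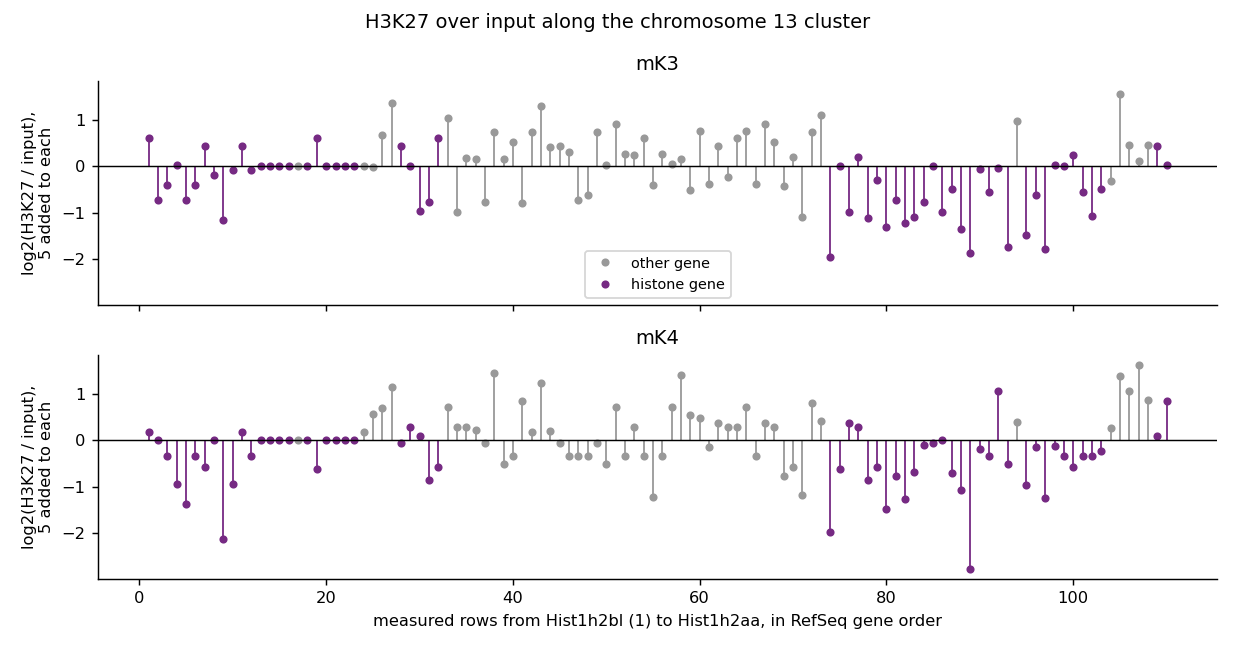
log2 ratio of H3K27 to input, with 5 added to each scaled count, for every measured row from Hist1h2bl to Hist1h2aa in RefSeq order, with mK3 above and mK4 below. Purple histone rows mostly point down and grey neighbours lie on both sides of 0; rows without reads sit at 0.

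For H3K4 the direction depended on the background. Relative to input, the histone genes had 0.769 (0.682 to 0.867) of their input share in mK3 and 0.67 (0.606 to 0.743) in mK4. Relative to exon length, their H3K4 density was 1.29 times that of all rows in mK3 and 1.35 times in mK4, and 1.74 and 1.81 times without the rows of repeated symbols. Hist1 genes gave 0.639 (0.555 to 0.735) and 0.545 (0.478 to 0.621) over input, and Hist2 genes 0.968 (0.701 to 1.35) and 0.851 (0.699 to 1.04). Within Hist1, the block from Hist1h4h to Hist1h1a gave 0.572 (0.492 to 0.667) and 0.55 (0.477 to 0.634). The block from Hist1h2bl to Hist1h2br gave 1.34 (0.845 to 2.17) and 0.487 (0.329 to 0.717). That from Hist1h2ah to Hist1h2bj gave 0.942 (0.412 to 2.28) and 0.842 (0.34 to 2.21). In mK3, only the first of these blocks had an interval below 1. Hist3 genes gave 1.79 (1.19 to 2.76) and 1.44 (0.989 to 2.12), and the densities of H3K4 in that cluster were 57.8 (47.4 to 70.0) and 48.2 (39.5 to 58.3). H3K4 densities were 17.7 (16.1 to 19.4) and 15.3 (13.9 to 16.8) for Hist1, and 21.4 (17.6 to 25.8) and 42.4 (37.5 to 47.9) for Hist2. Hist3 thus lay above Hist1 under both views, whereas with all rows counted the intervals of Hist1 and Hist2 overlapped in mK3. Without the rows of repeated symbols, the H3K4 densities in mK3 were 23.7 for Hist1 and 32.9 for Hist2, and their intervals did not overlap. The intervals of H3K4 over input for these clusters in mK3 still overlapped without those rows.

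Hist3h2a supplied most of the Hist3 signal. It held 97 and 92 H3K4 reads in mK3 and mK4, 33 and 26 H3K27 reads, and 24 and 29 input reads. H3K4 was the highest of the 3 library kinds in both lines, with 2.11 times (1.34 to 3.46) the input share in mK3 and 1.72 times (1.12 to 2.71) in mK4. Its H3K27 ratio was 0.722 (0.414 to 1.28) and 0.72 (0.408 to 1.27), which is not distinguishable from 1 at this depth. The other Hist3 rows, the H2B gene Hist3h2ba and the pseudogene Hist3h2bb-ps, had at most 7 reads in any library.

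By the 2-fold rule 0 of 75 rows had more H3K4 than input in mK3, against 4.9% of all rows and 5.86% of the short ones. In mK4 the count was also 0, against 3.67% and 4.51%. Hist3h2a came nearest, at log2 ratios of 0.99 and 0.71. In mK3, 4 rows had less H3K4 than input (Hist1h1e, Hist1h2bb, Hist1h3f and Hist1h4h; 5.33%), against 3.61% of all rows and 3.5% of the short ones, which is near the background. In mK4, 8 rows had less (10.7%), against 2.51% and 3.01%. The linker genes Hist1h1b, Hist1h1d and Hist1h1e were among these 8. Hist1h1e held 40 and 41 H3K4 reads against 46 and 60 input reads, for ratios of 0.455 (0.29 to 0.71) and 0.37 (0.243 to 0.56). Hist1h2bb, an H2B gene, held 5 and 2 H3K4 reads against 11 and 9 input reads. Hist2h2ab, an H2A gene of the chromosome 3 cluster, lay at the other end in mK4, with 40 H3K4 reads against 13 input reads, a ratio of 1.67 (0.873 to 3.4).

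Comparing both antibodies with each other removes the input from the ratio; this contrast was added after the input values had been seen. The H3K4 share of the histone genes was 1.87 times (1.64 to 2.13) their H3K27 share in mK3 and 1.6 times (1.41 to 1.82) in mK4. Hist1 gave 1.67 and 1.35, Hist2 gave 2.21 and 2.2, and Hist3 gave 2.64 and 1.98, all with intervals above 1. The Hist1 neighbours gave 0.614 (0.542 to 0.696) and 0.612 (0.543 to 0.688), on the other side of 1. Within Hist1 the H4 genes stood at 2.99 (1.73 to 5.41) and 2.36 (1.22 to 4.92), and the H2A genes at 0.86 (0.542 to 1.36) and 0.851 (0.6 to 1.21). H2A genes of the chromosome 13 cluster were thus the class without an excess of H3K4 over H3K27 reads in either line.

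Between the lines, the chromosome 3 cluster differed in every kind of library. Shares over the Hist2 genes were 1.98 times (1.58 to 2.5) as high in mK4 as in mK3 for H3K4, 2.0 times (1.39 to 2.9) for H3K27 and 2.25 times (1.67 to 3.08) for input. The 1003 other genes of chromosome 3 moved with them, at 1.86, 1.89 and 1.84 times, with intervals from 1.8 to 1.92. Hist2h2be, the longest H2B row, had 36 and 106 H3K4 reads, 23 and 43 H3K27 reads, and 23 and 59 input reads. It was higher in mK4 in all 3 kinds, by 2.45, 2.3 and 2.07 times. Hist2h2bb, the other H2B gene of the cluster, had 9 and 37 H3K4 reads, 8 and 9 H3K27 reads, and 7 and 33 input reads. Its H3K4 and input were thus higher in mK4, while its H3K27 reads are too few to tell whether H3K27 moved with them. Divided by the input ratio, the Hist2 difference was 0.879 (0.608 to 1.27) for H3K4 and 0.885 (0.559 to 1.4) for H3K27. A chromosome-wide difference in input and a difference in these genes alone cannot be told apart from a mark without that division.

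Hist1 and Hist3 genes lay nearer to equality between the lines. The Hist1 ratio, mK4 over mK3, was 0.865 (0.758 to 0.987) for H3K4, 1.07 (0.895 to 1.28) for H3K27 and 1.01 (0.882 to 1.17) for input. Hist3 gave 0.834 (0.631 to 1.1), 1.11 (0.687 to 1.78) and 1.04 (0.634 to 1.72). The other genes of chromosome 13 rose in density from mK3 to mK4, from 13.6 to 15.4 for H3K4, 13.5 to 15.2 for H3K27 and 13.4 to 15.2 for input. Divided by the ratio of the other genes in the Hist1 span, the Hist1 ratio was 0.793 for H3K4, 0.978 for H3K27 and 0.979 for input. Divided by the Hist1 input ratio, it was 0.854 (0.707 to 1.03) for H3K4. Summed over all 75 rows the ratios were 1.05 (0.944 to 1.16), 1.22 (1.05 to 1.41) and 1.2 (1.06 to 1.35). Without the chromosome 3 cluster, H3K4 was 0.862, H3K27 1.09 and input 1.04.

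**Figure D5:**
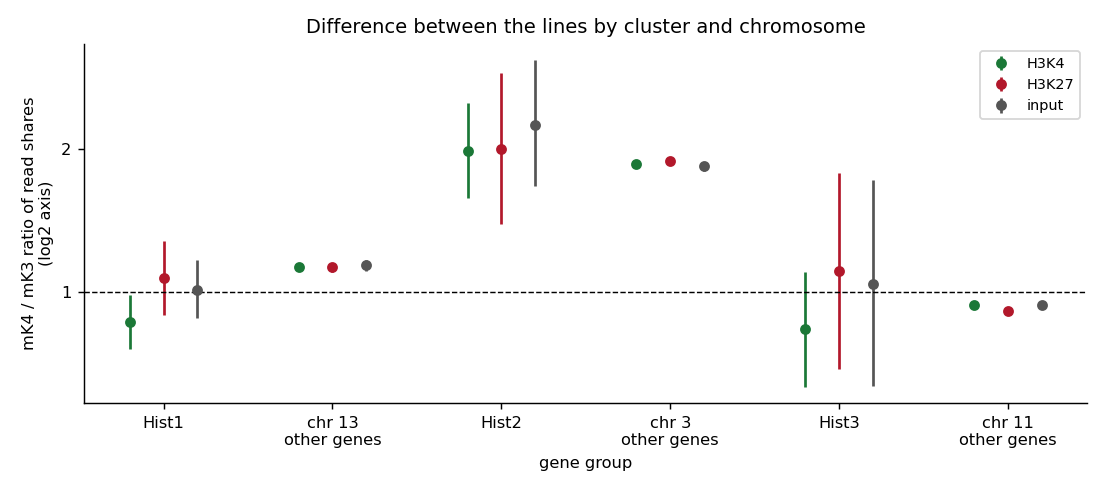
Ratio of read shares, mK4 over mK3 (log2 axis), for the histone genes of 3 clusters and for the other genes of their chromosomes, with bars for exact intervals (counting error only). Hist2 and the other genes of chromosome 3 both lie between 1.84 and 2.25 in all 3 kinds of library.

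For H1 and H4 genes summed, H3K4 relative to input was lower in mK4 than in mK3. For H1, the H3K4-over-input ratio in mK4 was 0.699 times (0.531 to 0.92) that in mK3. Hist1h1b decided whether that interval excluded 1. It had 41 and 23 H3K4 reads, 7 and 5 H3K27 reads, and 12 and 30 input reads, so its H3K4 was above input in mK3 (1.79, 0.922 to 3.74) and below it in mK4 (0.415, 0.23 to 0.739). Without Hist1h1b the ratio was 0.813 (0.606 to 1.09). H4 genes gave 0.58 (0.36 to 0.932), and 0.704 (0.414 to 1.2) without Hist2h4 of chromosome 3. The latter sum still held Hist4h4, with 11 and 13 H3K4 reads against 2 and 15 input reads. The H4 genes of Hist1 alone had 54 and 42 H3K4 reads against 43 and 41 input reads. The ratios for H2A, H2B and H3 were 0.782, 1.1 and 1.32 for H3K4, and every class interval for H3K27 included 1.

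Few single rows passed 2-fold between the lines. For H3K4, 2 rows were higher in mK4 (Hist2h2bb and Hist2h2be; 2.67%), against 4.48% of all rows and 3.35% of the short ones, and 1 was lower (Hist1h1t), against 2.97% and 2.51%. For H3K27, 2 rows were higher (Hist2h2ab and Hist2h2be), against 3.71% and 2.44%, and 0 were lower, against 3.52% and 3.03%. For input, 4 rows were higher (Hist2h2ac, Hist2h2bb, Hist2h4 and Hist4h4; 5.33%), against 7.21% and 6.21%. Likewise 4 were lower (Hist1h1t, Hist1h3a, Hist1h3g and Hist1h4i; 5.33%), against 6.16% and 5.72%. All of these shares lie near or below the background. Hist4h4, the lone H4 gene on chromosome 6, had 2 and 15 input reads but 11 and 13 H3K4 reads and 3 and 7 H3K27 reads, while other chromosome 6 genes had 0.835 times the input share in mK4.

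The Hist1 genes Hist1h1t, Hist1h2aa and Hist1h2ba are known mainly from the male germ line. They were grouped after their values had been seen. Hist1h1t had 16 and 6 H3K4 reads, 13 and 5 H3K27 reads, and 7 and 0 input reads in mK3 and mK4, where a count of 0 allows up to 3 reads. Hist1h2aa and Hist1h2ba had at most 6 reads in any library. Summed, the group's H3K27 share over input was 1.12 (0.456 to 2.99) in mK3 and 3.75 (1.05 to 20.4) in mK4, the latter from 14 and 3 reads. The Hist1 cluster as a whole, these genes included, gave 0.383 and 0.405. In RPKM, the group's H3K27 density was 17.0 in mK3 and 17.2 in mK4, while its input fell from 15.2 to 4.59. Its H3K4 density, 16.9 and 5.8, also lay above input in both lines, from 17 and 7 reads.

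Related genes outside the clusters were read from 2 lists. The first holds 18 replication-independent histone variant genes, of which 15 had a row. By the 2-fold rule H3K4 exceeded input for 3 of them in mK3 (H3f3a, Cenpa and H2afx) and for 2 in mK4 (H3f3b and H2afx). It was below input for 0. Of all rows, 4.9% and 3.67% exceeded input in mK3 and mK4, and 3.61% and 2.51% were below it. H2afx, whose product marks DNA breaks once phosphorylated, had 110 and 134 H3K4 reads, 21 and 13 H3K27 reads, and 22 and 32 input reads, for H3K4 ratios of 2.62 (1.64 to 4.34) and 2.27 (1.53 to 3.45). H3K27 exceeded input for H1fnt and H1foo in mK3 and for H1fnt in mK4; both encode germ-cell linker histones. It was below input for H2afv in mK3 and for H2afx in mK4. Of all rows, 10.2% and 9.01% had more H3K27 than input in mK3 and mK4, and 5.32% and 6.07% had less. The H3K27 counts of the list are near these shares. The median H3K4 log2 ratio of the list was 0.57 in mK3 and 0.35 in mK4, against 0.00 for all rows and 0.00 and -0.10 for the clustered genes. Unread rows enter the clustered medians at 0. Clustered genes with at least 10 reads in the 2 libraries gave -0.37 and -0.38. The second list holds 25 genes for histone transcription, RNA processing and chaperoning, of which 23 had a row. H3K27 was below input for 4 of these in mK3 (Cdk2, Chaf1a, Lsm10 and Nasp) and for 2 in mK4 (Slbp and Asf1b), against 5.32% and 6.07% of all rows, and above it for 0, against 10.2% and 9.01%. The mK4 count is near the background. H3K4 was above input for 3 in mK3 (Cdk2, E2f1 and Slbp) and for 0 in mK4, against 4.9% and 3.67% of all rows. It was below input for 1 in mK3 (Zfp473) and 0 in mK4, against 3.61% and 2.51% of all rows. Npat, the coactivator of histone gene transcription, held 88 and 78 H3K4 reads, 68 and 40 H3K27 reads, and 57 and 61 input reads, with H3K4 ratios of 0.808 (0.572 to 1.15) and 0.693 (0.489 to 0.985).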

How the data were processed

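The data were 6 tables, 1 for each library, with a read count, an RPKM value and an exon length for each gene row. Per the file headers, the authors counted reads from alignment files over exons of genes. Reads were placed on mm9, per the submitters' processing notes; which aligner was used, how long the reads were and how duplicates and reads with several matches were treated is not stated. The deposited RPKM values were recomputed from count, exon length and column total and differed by at most 4e-08 over the histone rows. Ratios are ratios of shares of the library's summed count. Single rows were compared on log2 of the count, scaled to the mean library total (513622), plus 5, with a 2-fold rule.

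Rows with a symbol matching Hist1h to Hist4h were kept. The members and lists were chosen with earlier results of these data known. Genes were named where they were among the 3 highest or lowest in a contrast with 10 or more reads, among the 2 best-covered of a class, or outside Hist1, and from the 2 lists. The repeat check, motif search, germ-line group, H3K4 to H3K27 contrast and the splits leaving out single genes were chosen after seeing the data. Repeats and motifs were searched in RefSeq promoter windows of GRCm38.p6 (250 bases before to 50 after the start); no coordinates were converted to mm9. With 1 library per group no test was possible. Intervals came from scipy 1.17.1, tables from pandas 2.3.3 in Python 3.11.15. The row comparison was tested on simulated data, for the mK3 H3K4 and input libraries only. The changes placed there exceeded 2-fold and lay in rows expecting on average at least 10 reads per library. Most histone rows had fewer, so detection of a change was not tested for them.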

Additional observations from a re-analysis of the deposited data

How the results depend on the processing

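Of 139 values under alternative settings, 92 stayed in place, 40 moved and 7 reversed. With exon length as background, H3K4 over the histone genes turned from 0.769 to 1.29 in mK3 and from 0.67 to 1.35 in mK4, and H3K27 moved to 0.694 and 0.846. Leaving out repeated symbols as well gave 1.74 and 1.81 for H3K4 and 0.924 and 1.14 for H3K27, reversed in mK4. Hist1 alone then stood at 0.954 for H3K27 in mK4, and Hist2 at 1.85. Against exon length, 5 and 8 of 75 rows were 2-fold higher for H3K4 (6.67% and 10.7%, against 5.83% and 6.26% of all rows), and 4 were lower in mK4 (5.33% against 10.9%). For H3K27, 4 and 4 were lower (5.33% each, against 7.61% and 9.75%), so the excess of low rows was gone. Divided by the members' input ratio, the line difference was 0.872 (H3K4) and 1.02 (H3K27) for all rows. For Hist2 the values passed to the other side of 1, at 0.879 (0.608 to 1.27) and 0.885 (0.559 to 1.4). They count as reversed, but both intervals include 1. Without the chromosome 3 cluster, H3K4 was 0.862 and input 1.04. Without the H1 rows, H3K4 over input in mK4 was 0.781 and input density 20.0 and 25.5; without repeated symbols, input density was 36.3 and 43.4. Adding 1 in place of 5, in mK3 and mK4, gave 8 and 4 rows higher for H3K4 over input (against 11.6% and 9.57% of all rows) and 10 and 20 lower (10.2% and 8.11%). For H3K27 it gave 7 and 4 higher (18.0% and 17.5%) and 29 and 30 lower (10.8% and 12.7%), which are 38.7% and 40.0% of the members. Between lines that setting gave 9 higher and 12 lower for H3K4 (10.4% and 7.87% of all rows), 11 and 6 for H3K27 (8.02% and 9.4%), and 20 and 11 for input (14.2% and 12.6%). Adding 10 gave 2 and 3 lower for H3K4 (1.25% and 0.503% of all rows), 8 and 6 lower for H3K27 (2.41% and 2.58%) and 0 higher for H3K27 in mK4 (4.88%). Median-of-ratios scaling gave 1 row higher for H3K4 in mK3 (against 5.26% of all rows) and 0 lower for H3K4 between lines (2.62%). Among rows with at least 10 reads, 0 of 21 members were higher for H3K27 in mK4, against 10.2% of all such rows. For input between lines, 1 of 21 was lower, against 6.56%. No paired analysis was possible because each group holds 1 library and the labels carry no replicate numbers. With under 5 input reads in 52 (mK3) and 49 (mK4) of 75 rows, values for most single genes rest on few reads.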
